A study of Mus musculus with 20 samples.

Results

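The genes described are 10 that encode the cytoplasmic polyadenylation machinery of the oocyte, namely the CPEB family Cpeb1, Cpeb2, Cpeb3 and Cpeb4, the poly(A) polymerases Papd4 (also called Gld2) and Papola, the cleavage and polyadenylation factors Cpsf1 and Cpsf4, the scaffold gene Sympk, and Dazl. They were chosen by name, with no measured value in the rule, and make up 10 of the 23309 gene symbols in the deposited tables. Earlier results of these data were known when they were chosen. Each has an entry in all 20 libraries, with an estimate that the quantification software marked as usable. That estimate is 0 FPKM for Cpeb2, Cpeb4 or Cpsf4 in some libraries of the Erk experiment described below. The study sequenced mRNA from mouse oocytes and early embryos in 2 experiments. In the Btg4 experiment, oocytes and embryos labelled Btg4-/- or wild type were collected as germinal vesicle (GV) oocytes arrested in meiotic prophase, as mature oocytes arrested in the second meiotic metaphase (MII), as zygotes and as 2-cell embryos, with 2 libraries for each of the 8 groups. The Erk experiment has 1 library each for oocytes labelled Erk-/- and wild type at GV and at MII. Every sample pooled 60 oocytes or embryos of the ICR strain, from females 21 to 23 days old that had received PMSG and hCG, hormones that stimulate follicle growth and ovulation. The labels name neither the Btg4 allele, nor which Erk gene was deleted, nor the Cre line if one was used, and they do not say whether replicate libraries came from separate animals. The spread behind each p-value is that between libraries and may be no more than technical.

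Fully grown oocytes are transcriptionally silent, and many of their stored mRNAs carry short poly(A) tails that are lengthened in the cytoplasm during maturation, which turns on their translation. CPEB1 binds U-rich cytoplasmic polyadenylation elements in 3′ untranslated regions (UTRs), the CPSF complex binds the nearby hexamer AAUAAA, and symplekin and a poly(A) polymerase complete the assembly. During maturation CPEB1 is phosphorylated and then degraded while CPEB4 takes over part of its work, and DAZL, a germ-cell RNA-binding protein, acts with CPEB1 on shared targets. Btg4 encodes an adaptor of the CCR4-NOT deadenylase, which shortens the same tails.

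Sequence matches to the element that CPEB1 binds are shown here for 4 mRNAs known to be translationally recruited in maturing oocytes. Binding to these sites was not measured. The last 100 bases of annotated transcripts (GENCODE mouse release 21, GRCm38) were searched on the sense strand for TTTTAT or TTTTAAT, neither of which contains the other. The capitals mark the match in each 30-base stretch, written 5′ to 3′.
Btg4: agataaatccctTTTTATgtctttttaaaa
Bub1b: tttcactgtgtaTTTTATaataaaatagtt
Wee2: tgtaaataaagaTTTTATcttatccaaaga
Sycp3: ttgtttgtttgTTTTAATagttgttctctc
They lie at chr9:51119797-51119826 (Btg4), chr2:118641553-118641582 (Bub1b), chr6:40466784-40466813 (Wee2) and chr10:88473174-88473203 (Sycp3), all on the plus strand of GRCm38 and all in a 3′ UTR. Counting the last base of the transcript as 1, the match starts at base 67 in Btg4, 27 in Bub1b, 18 in Wee2 and 51 in Sycp3. Bub1b held a further match at base 59 and Wee2 at base 46, not printed here. The printed Wee2 match lies on the 3′ side of the AATAAA in its stretch. Of 19 listed mRNAs of this kind, 9 (47.4%) held a match, against 3538 of 19830 protein-coding genes (17.8%). The machinery's own mRNAs held none: 0 of the 9 with an annotated 3′ UTR of at least 100 bases had either motif in this window, and Cpsf1 had no such UTR. That says only that these letters are not in the annotated last 100 bases; the transcript ends used in oocytes were not measured.

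Levels are in FPKM, which scales fragments to transcript length and library size. The number of symbols at 1 FPKM or more per library was 8385 to 10058 in the Btg4 experiment, whereas the Erk libraries had 7265 to 9253. The files hold no counts. Judged by the deposited intervals, depth relative to wild-type GV library 1 was 0.699 to 1.28 in the libraries of the same experiment and 1.52 to 2.09 in the Erk libraries. Of 10 oocyte markers, 9 to 10 reached 1 FPKM in every library of the Btg4 experiment and all 10 in every Erk library. Of 15 granulosa and cumulus cell markers, 8 to 9 reached 1 FPKM at GV in the Btg4 experiment, with summed levels of 89.4 to 104 FPKM in both genotypes, against 5.07 to 25.5 FPKM at later stages. The Erk libraries had 2 to 4 of these markers at 1 FPKM, with sums of 28.9 and 37.2 FPKM at GV and 24.9 and 14.6 FPKM at MII in wild type and labelled Erk-/-. Summed blood cell markers (6 genes) stood at 85.0 and 50.3 FPKM in the wild-type MII libraries and at 1.53 and 0 FPKM in the MII libraries labelled Btg4-/-. The part of either marker list in the results was not tested. Btg4 mRNA went against its label at 2 stages: at GV the libraries labelled Btg4-/- held 1980 and 1881 FPKM, against 1450 and 1673 FPKM in wild type, and at the 2-cell stage 3514 and 3632 against 1147 and 964 FPKM. The labels do not say which part of the gene was deleted, so its level is no check of the genotype. Because mRNA was purified before library preparation, a longer poly(A) tail and more mRNA cannot be told apart in these values, nor can less RNA per oocyte and fewer intact oocytes in the pool.

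Of the 10 genes, 1 passed the test between genotypes at GV, 7 at MII, 8 in the zygote and 4 at the 2-cell stage. All comparisons of the Btg4 experiment used limma on log2(FPKM + 1), with p-values adjusted over 12311 genes and a threshold of 0.05. At GV, 0 of the 10 genes were higher in the libraries labelled Btg4-/- (1.45% of all genes tested) and 1 was lower (6.46%), with 7.9% of all genes called in either direction. At MII, 2 were higher (29.1% of all genes) and 5 lower (23.3%), with 52.4% called in all. In the zygote, 3 were higher (24.4%) and 5 lower (23.3%), with 47.7% called in all. In the 2-cell embryo 1 was higher (22.6%) and 3 were lower (26.4%), with 49% called in all; 1 of these 3 is Cpeb2, which entered the test only through the wild-type 2-cell libraries and is no support for the count. The median log2 change of the 10 genes was -0.20, -0.35, -0.55 and -0.23 at the 4 stages in order, beside -0.12, 0.09, 0.01 and -0.05 over all genes tested. At GV the median of all genes moved to 0 under median-of-ratios scaling, and the share of calls that were higher moved from 18.3% to 53.6%. The counts of the 10 genes are read only against these shares and mark nothing particular to the machinery as a group.

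**Figure D1:**
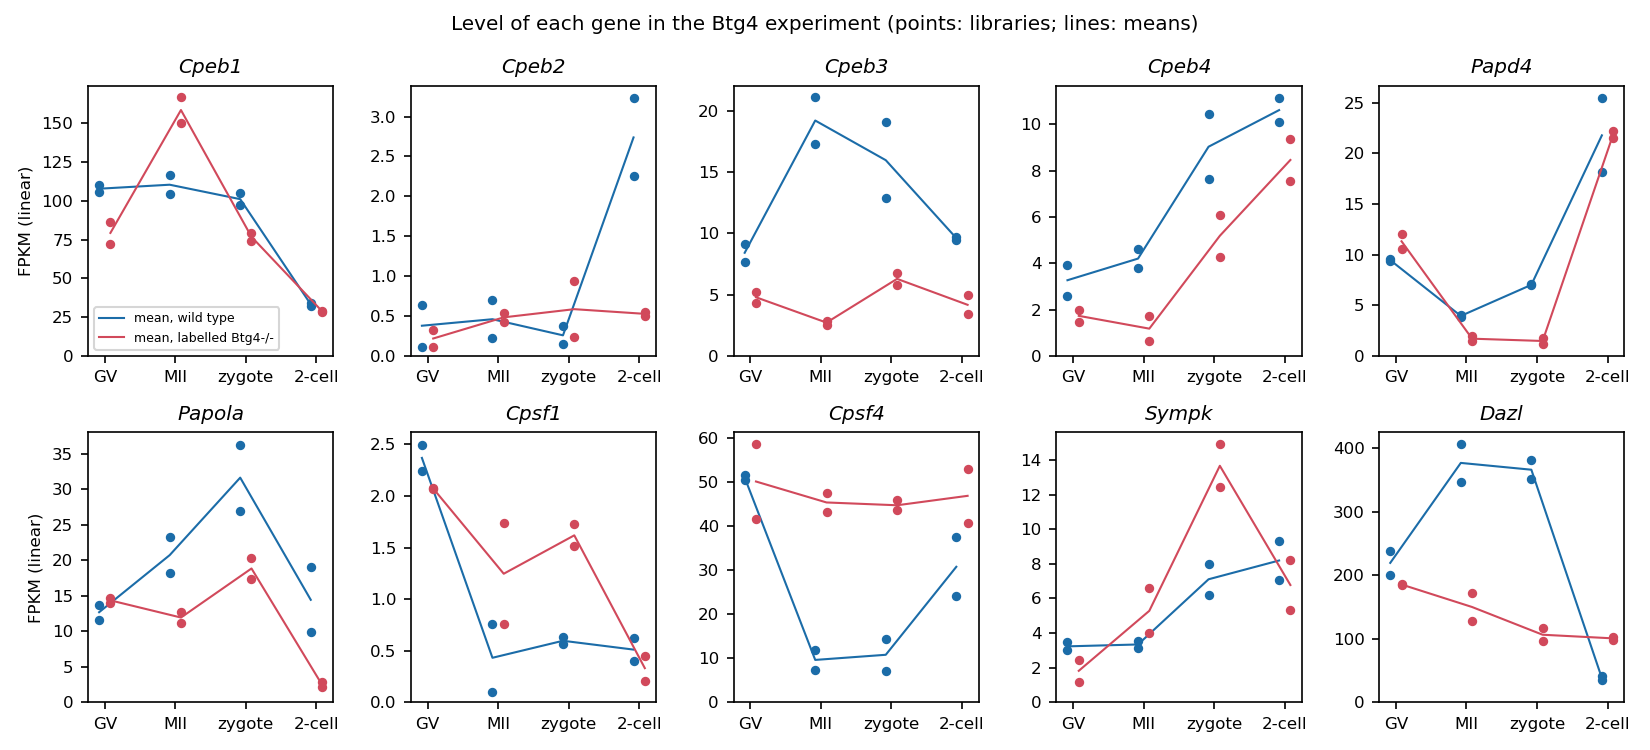
Level of each of the 10 genes in the 16 libraries of the Btg4 experiment, in FPKM on a linear axis that starts at 0, by stage; points are libraries, lines join the means of 2, blue is wild type and red is labelled Btg4-/-. Dazl stands at 348 and 406 FPKM in wild-type MII against 128 and 173 FPKM in the other genotype, and the order is turned at the 2-cell stage.

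Cpeb1 (mm9, chr7:88491912-88599644) encodes the founding member of the family and the one that binds the element shown above. In wild type its level was 110 and 106 FPKM at GV, 117 and 104 FPKM at MII, 97.4 and 105 FPKM in the zygote, and 34.1 and 32.4 FPKM in the 2-cell embryo. The libraries labelled Btg4-/- gave 72.4 and 86.3 FPKM at GV, 150 and 167 FPKM at MII, 79.5 and 74.2 FPKM in the zygote, and 28.4 and 29.2 FPKM at the 2-cell stage. Wild-type libraries lay between 97.4 and 117 FPKM until the zygote and were lower at the 2-cell stage, while the other genotype was highest at MII. Under median-of-ratios scaling the wild-type zygote passed as lower than MII (-0.41, adjusted p = 0.0427). The genotypes did not overlap at any stage, below wild type at 3 stages and above it at MII. The log2 difference between genotypes was -0.44 at GV (SE 0.12, limma adjusted p = 0.0465), 0.52 at MII (adjusted p = 0.00326), -0.39 in the zygote (adjusted p = 0.0191) and -0.20 at the 2-cell stage (adjusted p = 0.202). The GV call did not hold under median-of-ratios scaling (-0.20, adjusted p = 0.439), and leaving out any 1 of the 4 GV libraries ended it (adjusted p 0.0593 to 0.241). The MII call ended under quantile normalization (0.09, adjusted p = 0.661), and the zygote call ended without library 2 of the labelled Btg4-/- zygotes (adjusted p = 0.106) or without wild-type zygote library 2 (adjusted p = 0.109).

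Cpeb3 (mm9, chr19:37095781-37281783) encodes a family member best known from neurons, where it represses translation at synapses. Wild-type libraries held 7.69 and 9.13 FPKM at GV, 17.3 and 21.1 FPKM at MII, 12.8 and 19.07 FPKM in the zygote, and 9.73 and 9.47 FPKM at the 2-cell stage. With Btg4-/- on the label the values were 5.24 and 4.32 FPKM at GV, 2.88 and 2.56 FPKM at MII, 5.82 and 6.74 FPKM in the zygote, and 3.40 and 4.93 FPKM at the 2-cell stage. Every labelled Btg4-/- library lay below every wild-type library, with the widest gap at MII, where wild type was at its highest and the other genotype at its lowest. Cpeb3 was lower by a log2 change of -2.44 at MII (SE 0.23, adjusted p = 1.99e-06), -1.20 in the zygote (adjusted p = 0.000973) and -1.05 at the 2-cell stage (adjusted p = 0.00235). The difference of -0.70 at GV did not pass (adjusted p = 0.0917). The 2-cell call ended in a fit of that stage's groups alone (adjusted p = 0.0674).

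Cpeb4 (mm9, chr11:31772211-31831577) encodes the family member that is itself translated late in maturation and sustains polyadenylation toward the second division. Its level in wild type was 2.60 and 3.94 FPKM at GV, 3.79 and 4.61 FPKM at MII, 10.4 and 7.63 FPKM in the zygote, and 11.1 and 10.1 FPKM at the 2-cell stage. The libraries labelled Btg4-/- held 1.47 and 1.99, 0.630 and 1.73, 6.10 and 4.28, and 7.58 and 9.35 FPKM at these stages. Both genotypes were highest at the 2-cell stage, and wild type stood above the other genotype in every stage without overlap. Only the MII difference passed the test, at a log2 change of -1.30 (SE 0.30, adjusted p = 0.00236), and not in a fit of the MII groups alone (adjusted p = 0.0659). The zygote difference was -0.70 (adjusted p = 0.069).

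Cpeb2 (mm9, chr5:43624702-43680963) was the least abundant family member, at 0.111 to 0.936 FPKM in the 14 libraries other than the wild-type 2-cell embryo. The 2 wild-type 2-cell libraries stood apart at 3.23 and 2.25 FPKM, against 0.552 and 0.503 FPKM in the 2-cell libraries labelled Btg4-/-. The gene passed the filter on low values only through the wild-type 2-cell group, so that its difference there had to appear and is given as a description: a log2 change of -1.28 (SE 0.29, adjusted p = 0.00238). In the other groups the level was too low for a difference to be detectable.

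Papd4 (mm9, chr13:93917355-93962238) encodes GLD2, a cytoplasmic poly(A) polymerase found in CPEB complexes. In wild type it stood at 9.53 and 9.36 FPKM at GV, 4.03 and 3.86 FPKM at MII, 7.05 and 6.98 FPKM in the zygote, and 25.4 and 18.1 FPKM at the 2-cell stage. The other genotype gave 10.6 and 12.0 FPKM at GV, 1.95 and 1.46 FPKM at MII, 1.78 and 1.17 FPKM in the zygote, and 21.5 and 22.1 FPKM at the 2-cell stage. The dip after GV was deeper in the labelled Btg4-/- libraries and lasted through the zygote, where wild type had already turned upward, and the genotypes overlapped at the 2-cell stage alone. Papd4 was lower by a log2 change of -0.88 at MII (SE 0.21, adjusted p = 0.00373) and -1.71 in the zygote (adjusted p = 2.76e-05). At the 2-cell stage the difference was 0.02, with a 95% interval of -0.44 to 0.49 (adjusted p = 0.954). In a fit of the MII groups alone the MII difference missed the threshold (adjusted p = 0.0536).

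Papola (mm9, chr12:107022912-107077153) encodes the canonical poly(A) polymerase, which acts in the nucleus on new transcripts and is also found in the oocyte cytoplasm. Wild-type values were 11.7 and 13.7 FPKM at GV, 18.2 and 23.2 FPKM at MII, 27.0 and 36.3 FPKM in the zygote, and 9.88 and 19.0 FPKM at the 2-cell stage. The libraries labelled Btg4-/- gave 14.7 and 14.0 FPKM at GV, 11.2 and 12.7 FPKM at MII, 17.4 and 20.3 FPKM in the zygote, and 2.86 and 2.12 FPKM at the 2-cell stage. Both genotypes peaked in the zygote, and wild type was higher without overlap from MII onwards, most of all at the 2-cell stage. The 2-cell difference was a log2 change of -2.09 (SE 0.27, adjusted p = 3.27e-05). At MII and in the zygote the differences of -0.74 (adjusted p = 0.0334) and -0.71 (adjusted p = 0.0447) passed narrowly. The MII call ended without either labelled Btg4-/- MII library (adjusted p = 0.143 without library 1 and 0.0715 without library 2) or without wild-type MII library 2 (adjusted p = 0.191). The zygote call ended without either labelled Btg4-/- zygote library (adjusted p = 0.192 and 0.0812) or without wild-type zygote library 2 (adjusted p = 0.269).

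Cpsf4 (mm9, chr5:145928093-145942909) encodes a zinc finger subunit of CPSF that takes part in binding the AAUAAA hexamer. Its called differences between genotypes had the sign of Cpeb1 at MII and of Cpsf1 and Sympk in the zygote. They were opposite to the called differences of Cpeb3, Papd4, Papola and Dazl at both stages. Wild-type libraries held 50.5 and 51.6 FPKM at GV, 7.41 and 11.9 FPKM at MII, 14.4 and 7.21 FPKM in the zygote, and 37.5 and 24.1 FPKM at the 2-cell stage. The libraries labelled Btg4-/- stayed near the GV level throughout, at 58.7 and 41.6, 43.2 and 47.6, 43.6 and 45.9, and 53.1 and 40.7 FPKM in the same order. The genotypes overlapped at GV and were far apart at MII and in the zygote. Cpsf4 was higher in the libraries labelled Btg4-/- by a log2 change of 2.15 at MII (SE 0.31, adjusted p = 6.15e-05) and 2.02 in the zygote (adjusted p = 0.000135). Both calls held under every alternative run, leave-outs included. At the 2-cell stage the difference was 0.61 (adjusted p = 0.118).

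Cpsf1 (mm9, chr15:76426238-76438021) encodes the largest CPSF subunit and was scarce. Wild type gave 2.24 and 2.50 FPKM at GV, 0.761 and 0.104 FPKM at MII, 0.564 and 0.631 FPKM in the zygote, and 0.397 and 0.627 FPKM at the 2-cell stage. The libraries labelled Btg4-/- gave 2.07 and 2.08, 0.757 and 1.74, 1.51 and 1.73, and 0.211 and 0.453 FPKM. Wild type lay just above the other genotype at GV, the libraries overlapped at MII and at the 2-cell stage, and in the zygote wild type lay below. The zygote difference passed with a log2 change of 0.71 (SE 0.28, adjusted p = 0.0491). That call ended with a pseudocount of 0.1 (adjusted p = 0.139), under both scalings, and without any 1 of the 4 zygote libraries (adjusted p 0.107 to 0.168).

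Sympk (mm9, chr7:19609726-19639971) encodes symplekin, the scaffold that joins CPEB, CPSF and the polymerase. In wild type it was 3.47 and 3.005 FPKM at GV, 3.56 and 3.13 FPKM at MII, 6.22 and 7.99 FPKM in the zygote, and 9.31 and 7.07 FPKM at the 2-cell stage. The other genotype had 1.19 and 2.46 FPKM at GV, 3.99 and 6.58 FPKM at MII, 14.9 and 12.4 FPKM in the zygote, and 5.32 and 8.23 FPKM at the 2-cell stage. Wild-type libraries lay higher at GV and those of the other genotype at MII and in the zygote, while the 2-cell libraries overlapped. The differences at GV (-0.62, limma adjusted p = 0.254) and at MII (0.50, limma adjusted p = 0.18) did not pass. The zygote difference passed with a log2 change of 0.86 (SE 0.30, adjusted p = 0.031), but not after leaving out any 1 of the 4 zygote libraries (adjusted p 0.0522 to 0.168) or under median-of-ratios scaling (adjusted p = 0.0504).

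Dazl (mm9, chr17:50418719-50432924) was the most abundant of the 10 genes in most libraries of the Btg4 experiment. Its level in wild type was 200 and 239 FPKM at GV, 348 and 406 FPKM at MII, 351 and 381 FPKM in the zygote, and 41.4 and 35.0 FPKM at the 2-cell stage. The libraries labelled Btg4-/- held 184 and 187 FPKM at GV, 128 and 173 FPKM at MII, 96.6 and 116 FPKM in the zygote, and 98.9 and 103 FPKM at the 2-cell stage. Wild type rose at maturation and dropped steeply at the 2-cell stage, whereas every later library of the other genotype lay below its GV libraries, with like values in the zygote and at the 2-cell stage, so that the order at the 2-cell stage was the reverse of that before. The log2 change was -1.33 at MII (SE 0.16, adjusted p = 1.44e-05), -1.78 in the zygote (adjusted p = 1.65e-06) and 1.38 at the 2-cell stage (adjusted p = 1.42e-05). At GV the difference of -0.24 did not pass (adjusted p = 0.457). These 3 calls held under every alternative run.

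**Figure D2:**
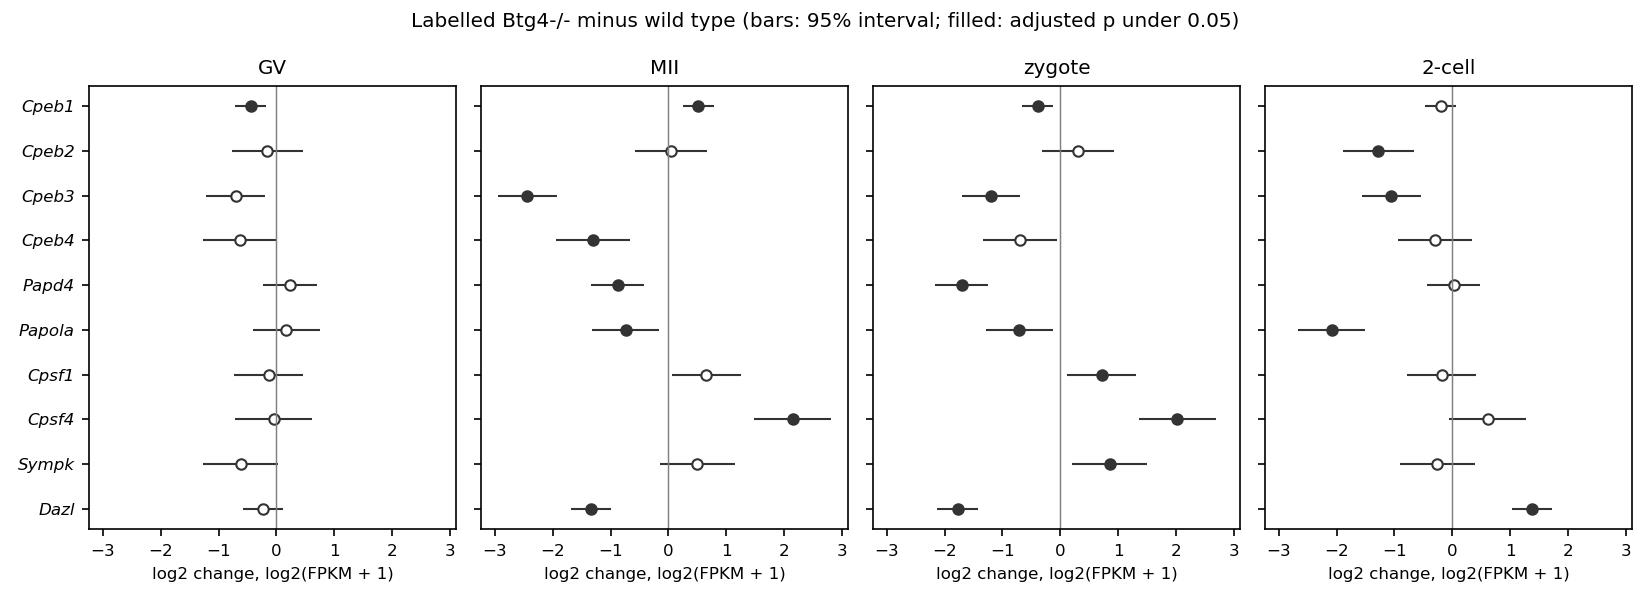
Log2 change on log2(FPKM + 1) between libraries labelled Btg4-/- and wild type (n = 2 each) for each gene, in 4 panels by stage; points are limma estimates, bars are 95% intervals, and filled points have an adjusted p under 0.05. At MII, Cpsf4 stands at 2.15 and Cpeb3 at -2.44, and at the 2-cell stage Dazl stands at 1.38 and Papola at -2.09.

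The same libraries show how the machinery changed from stage to stage in wild type. From GV to MII, Cpeb3 and Dazl were higher at MII and Papd4, Cpsf1 and Cpsf4 lower, which makes 2 of 10 genes higher (25.2% of all genes tested) and 3 lower (28.5%), with 53.7% of all genes called in either direction. Cpeb3 rose by a log2 change of 1.10 (adjusted p = 0.00146) and Dazl by 0.78 (adjusted p = 0.00115), while Papd4 changed by -1.08 (adjusted p = 0.000863), Cpsf1 by -1.27 (adjusted p = 0.00165) and Cpsf4 by -2.32 (adjusted p = 3.17e-05). Cpeb1, the element-binding protein of the assembly, showed a change of 0.03, with a 95% interval of -0.24 to 0.30. From MII to the zygote, Cpeb4, Papd4 and Sympk passed as higher, 3 of 10 (20.5% of all genes), and 0 genes as lower (8%), with 28.5% of all genes called in either direction. Over all genes the median change of this step was 0.22 and fell to 0.04 under median-of-ratios scaling. The 3 calls did not survive a change of scaling for Cpeb4 (adjusted p = 0.104), Papd4 (adjusted p = 0.159) and Sympk (adjusted p = 0.147), nor the loss of any 1 of the 4 libraries (adjusted p 0.0546 to 0.219 over the 3 genes).

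From zygote to the 2-cell embryo, when the embryonic genome is activated and maternal mRNAs are cleared, 3 of the 10 genes were higher in wild type (27.1% of all genes) and 4 lower (30.2%), with 57.4% called in all. Dazl changed by -3.23 (SE 0.16, adjusted p = 5.13e-09), Cpeb1 by -1.57 (adjusted p = 2.82e-07), Papola by -1.13 (adjusted p = 0.00277) and Cpeb3 by -0.65 (adjusted p = 0.0299). Papd4 gained 1.49 (adjusted p = 6.05e-05) and Cpsf4 gained 1.47 (adjusted p = 0.0012). Cpeb2 is the remaining gene called as higher and is described above. The germ-cell regulator Dazl and the main element-binding gene Cpeb1 thus fell while the polymerase gene Papd4 and the hexamer-binding gene Cpsf4 rose over the same interval. The genes did not split by function, since the other polymerase gene, Papola, fell. Neither Cpsf1 (-0.08, limma adjusted p = 0.826) nor Cpeb4 (0.22, limma adjusted p = 0.543) passed. The Cpeb3 call ended under median-of-ratios scaling (adjusted p = 0.0909) and without wild-type zygote library 2 (-0.38, adjusted p = 0.265), wild-type 2-cell library 1 (adjusted p = 0.0686) or wild-type 2-cell library 2 (adjusted p = 0.0836). In a fit of the zygote and 2-cell groups alone, Cpeb3 (adjusted p = 0.104), Cpsf4 (adjusted p = 0.0643) and Papola (adjusted p = 0.0867) missed the threshold.

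Where the label was Btg4-/-, 2 genes were higher at MII than at GV (27.3% of all genes) and 2 lower (18.1%), with 45.4% called in all. Cpeb1 rose by 0.99 (adjusted p = 2.26e-05) and Sympk by 1.16 (adjusted p = 0.00618), and Papd4 changed by -2.19 (adjusted p = 2.57e-06) and Cpeb3 by -0.63 (adjusted p = 0.0417). Leaving out any 1 of the 4 libraries ended the Cpeb3 call (adjusted p 0.0639 to 0.19), and the Sympk call ended without labelled Btg4-/- GV library 1 (adjusted p = 0.0753) or MII library 2 (adjusted p = 0.0764). Both calls ended in a fit of these groups alone (adjusted p = 0.0959 for Cpeb3 and 0.0985 for Sympk). Between MII and the zygote, Cpeb3 (0.97), Cpeb4 (1.54) and Sympk (1.25) rose and Cpeb1 changed by -1.03 (adjusted p = 0.000258). These 3 higher and 1 lower stand beside 10.3% and 5.38% of all genes, 15.7% in all. Cpeb3 lost its call without either labelled Btg4-/- MII library (adjusted p = 0.056 and 0.0873) or without labelled Btg4-/- zygote library 2 (adjusted p = 0.111), and Sympk without MII library 1 (adjusted p = 0.127) or without either zygote library (adjusted p = 0.0931 and 0.057). In a fit of these groups alone Cpeb3 (adjusted p = 0.0781), Cpeb4 (adjusted p = 0.104) and Sympk (adjusted p = 0.0934) missed the threshold, as did Cpeb3 (adjusted p = 0.0719) and Sympk (adjusted p = 0.0516) under quantile normalization. Between the zygote and the 2-cell stage, Papd4 rose by 3.22 (adjusted p = 1.16e-07), and Cpeb1 (-1.38), Papola (-2.51), Cpsf1 (-0.98) and Sympk (-0.94) were lower. These 1 higher and 4 lower stand beside 18.3% and 28.2% of all genes, 46.5% in all. Dazl, which lost most of its level in wild type in this interval, changed by -0.07 (95% interval -0.42 to 0.28). The Cpsf1 and Sympk calls rested on single libraries and ended, for Cpsf1, without labelled Btg4-/- zygote library 2 (adjusted p = 0.0595) or 2-cell library 1 (adjusted p = 0.0612), and, for Sympk, without zygote library 1 (adjusted p = 0.119) or 2-cell library 1 (adjusted p = 0.152). The Sympk call also ended in a fit of these groups alone (adjusted p = 0.0812).

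**Figure D3:**
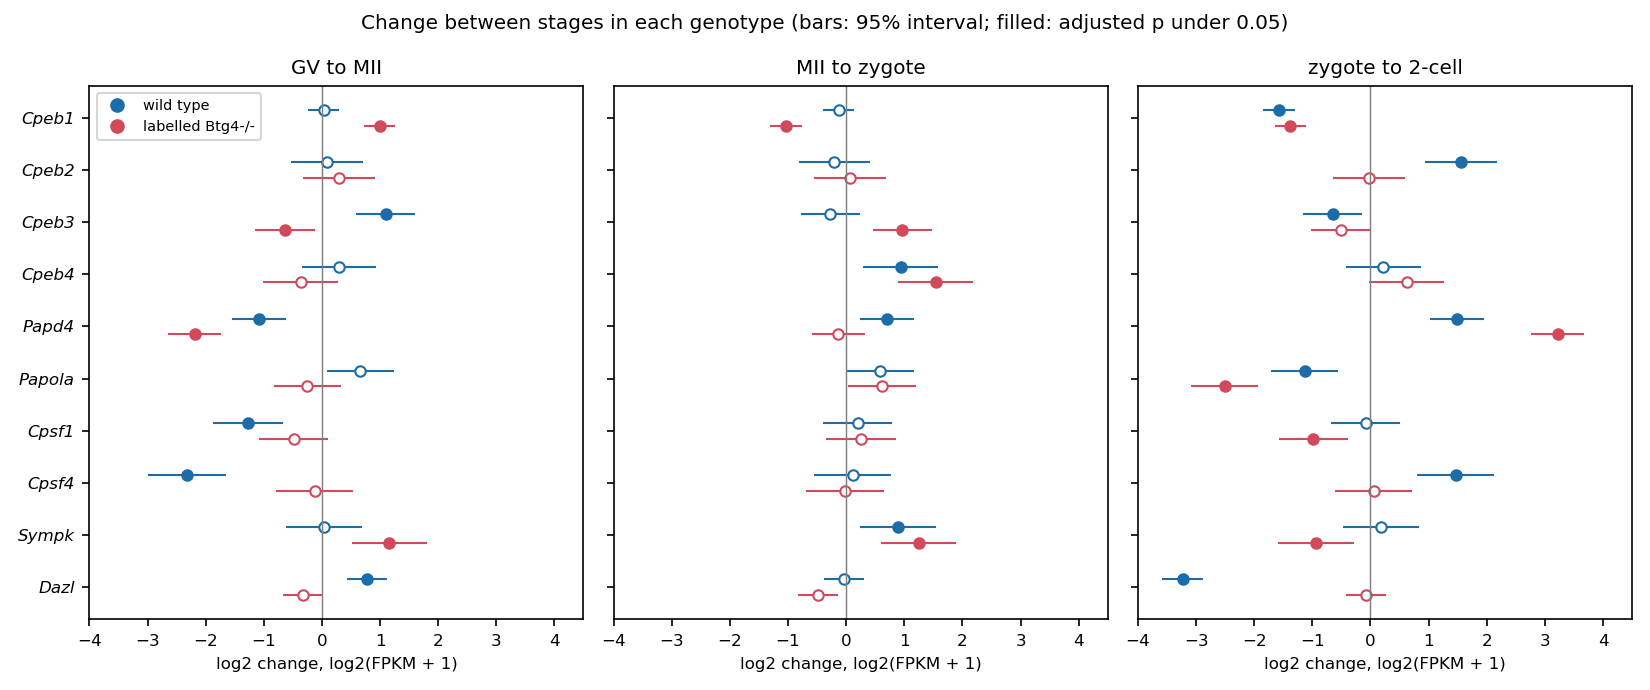
Log2 change between successive stages on log2(FPKM + 1), in 3 panels, for wild type (blue) and libraries labelled Btg4-/- (red), 2 libraries per group; bars are 95% limma intervals and filled points have an adjusted p under 0.05. From zygote to 2-cell, Dazl stands at -3.23 in wild type and at -0.07 in the other genotype, and Papd4 at 1.49 and 3.22.

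Whether the step itself differed between genotypes was tested with an interaction term. For GV to MII it passed in 6 of the 10 genes, beside 42.5% of all genes. Cpeb1, Cpsf4 and Sympk had the higher change in the libraries labelled Btg4-/- (3 genes, beside 26.5% of all), and Cpeb3, Papd4 and Dazl the lower one (3 genes, beside 16%). For MII to the zygote it passed in Cpeb3 as higher (1 gene, beside 4.95% of all) and in Cpeb1 as lower (1 gene, beside 7.25%), with 12.2% of all genes called. For zygote to 2-cell it passed in 6, beside 48% of all genes, Cpeb2 among them through the filter described above, with Papd4 and Dazl higher (2 genes, beside 22.2% of all) and Cpeb2, Papola, Cpsf4 and Sympk lower (4 genes, beside 25.9%). The Dazl term of the last step, 3.16 (SE 0.23, adjusted p = 3.62e-07), was the largest of the 10 genes. In fits of each step's groups alone the term missed the threshold for Sympk from GV to MII (adjusted p = 0.0951), for Cpeb3 from MII to the zygote (adjusted p = 0.0629), and for Cpsf4, Papola and Sympk from zygote to 2-cell (adjusted p = 0.0584, 0.0517 and 0.0552).

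Across the 16 libraries, the genes most like Dazl by Pearson r on log2(FPKM + 1) were Smug1 (r = 0.974), Pnpla3 (r = 0.966) and Txnip (r = 0.961). Smug1, a uracil DNA glycosylase gene, stood at 162 and 163 FPKM in wild-type MII and 46.8 and 47.9 FPKM in the MII libraries labelled Btg4-/-. Nearest to Papd4 were Stx7 (r = 0.969), Nus1 (r = 0.968) and Rimklb (r = 0.960), and nearest to Cpeb1 were Tsn (r = 0.956), Prim2 (r = 0.927) and Lrrc42 (r = 0.921). Among the 10 genes themselves, Cpeb3 and Cpsf4 ran most strongly opposite (r = -0.83), and Cpeb1 and Papd4 also ran opposite (r = -0.75). These coefficients describe 16 libraries that share stage, genotype and preparation.

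Around the 10 genes, 70 others of the pathway were followed, of which 64 were tested, Btg4 itself among them. At MII, 18 of the 64 were higher and 29 lower in the libraries labelled Btg4-/-, with a median log2 change of -0.41, beside 29.1% and 23.3% of all genes tested. In the zygote 15 were higher and 33 lower (24.4% and 23.3% of all genes), at the 2-cell stage 26 and 20 (22.6% and 26.4%), and at GV 2 and 8 (1.45% and 6.46%). These shares of all genes are also those beside each group below. Other nuclear 3′ end factors split at MII into 4 higher and 7 lower of 14. Cpsf2, another CPSF subunit gene, changed by -3.28 (adjusted p = 8.46e-09), while Cpsf3, which encodes the endonuclease, rose by 1.75 (adjusted p = 0.000225). Among partners and repressors (7 higher and 6 lower of 16 at MII), Zar1l rose by 4.65 (adjusted p = 2.70e-08) and Ybx2, which encodes a germ-cell mRNA-storage protein, by 1.74 (adjusted p = 1.79e-06). At the 2-cell stage Zar1, an egg mRNA-storage gene, rose by 4.23 (adjusted p = 1.31e-09). Of the kinases and other regulators acting on CPEB1, 4 were higher and 3 lower of 9 at the 2-cell stage, where Cdk1, which encodes the kinase of cell division, changed by -4.58 (adjusted p = 1.30e-08). The list of other poly(A) polymerases and nucleotidyltransferases, Zcchc6 among them, had 1 higher and 3 lower of 6 at MII. It had 0 and 3 in the zygote, and 1 and 2 at the 2-cell stage. From the list of DAZ family genes and DAZL partners, the 3 tested were Nanos2, Pum2 and Pabpc1l. The DAZ family gene Boll fell below the filter on low values. Of the 3 tested, 1 was higher and 1 lower at MII, 1 and 2 in the zygote, and 1 and 1 at the 2-cell stage. Pum2 and Pabpc1l are also counted among the partners and repressors.

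The recruited mRNAs, known as targets of the machinery, are described by their counts alone. At GV 1 of the 19 was higher and 2 were lower in the libraries labelled Btg4-/- (median -0.09), beside 1.45% and 6.46% of all genes. At MII 2 were higher and 12 lower (median -0.91), beside 29.1% and 23.3%, and in the zygote 3 and 13 (median -0.87), beside 24.4% and 23.3%. At the 2-cell stage 11 were higher and 3 lower (median 0.65), beside 22.6% and 26.4%. The 19 include Btg4, the gene named on the label, whose own difference is no support for these counts. Its mean in the labelled Btg4-/- and wild-type libraries was 181 and 411 FPKM at MII, and 152 and 585 FPKM in the zygote. At the 2-cell stage it was 3573 and 1055 FPKM. Bub1b, a spindle checkpoint gene with a sequence match shown above, stood at 309 and 352 FPKM in wild-type MII and at 74.5 and 75.4 FPKM in the other genotype. Sycp3, a synaptonemal complex gene and a known DAZL target, stood at 36.7 and 50.9 FPKM in wild-type MII and at 0.444 and 1.13 FPKM in the MII libraries labelled Btg4-/-, a log2 change of -4.66 (adjusted p = 7.31e-08). Wee2, which encodes the oocyte kinase that restrains CDK1, lay the other way, at 21.4 and 31.7 FPKM in wild type and 52.8 and 70.0 FPKM in the other genotype.

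In the Erk experiment, with 1 library per group, differences have no replicate check and no p-value, and 9 of the 10 genes reached 1 FPKM in at least 1 library. At GV, 1 of the 9 was over 2-fold higher on log2(FPKM + 1) in the library labelled Erk-/- (18.7% of 11404 genes) and 1 lower (23.5%), with 42.2% past 2-fold in either direction. Cpsf4 was 46.3 FPKM against 19.4 FPKM in wild type, and Cpsf1 was 1.86 against 7.77 FPKM. The wild-type MII library, the comparator at that stage, stood apart with 7265 symbols at 1 FPKM or more, against 8909 to 9253 in the other Erk libraries, and a median-of-ratios size factor of 0.741 against 1.07 to 1.31; its part in the result was not tested. At MII, 4 were over 2-fold higher (30.7% of all genes) and 0 lower (8.08%), with 38.8% in either direction. Cpeb1 stood at 73.6 FPKM in the MII library labelled Erk-/- and 21.6 FPKM in wild type, Sympk at 25.7 and 1.29 FPKM, Cpsf1 at 2.38 and 0.367 FPKM, and Cpsf4 at 4.91 FPKM with wild type listed at 0. Papd4 was lower in the library labelled Erk-/-, at 58.4 against 98.0 FPKM, without passing 2-fold, and passed it under median-of-ratios scaling (-1.27). Papola was level at 28.4 and 28.6 FPKM, Cpeb3 at 13.4 and 12.9 FPKM, and Cpeb4 at 23.1 and 22.4 FPKM. The median of all genes in this pair was 0.26 and moved to 0 under median-of-ratios scaling. The Cpsf1 difference of 1.31 came down to 0.40 under quantile normalization.

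**Figure D4:**
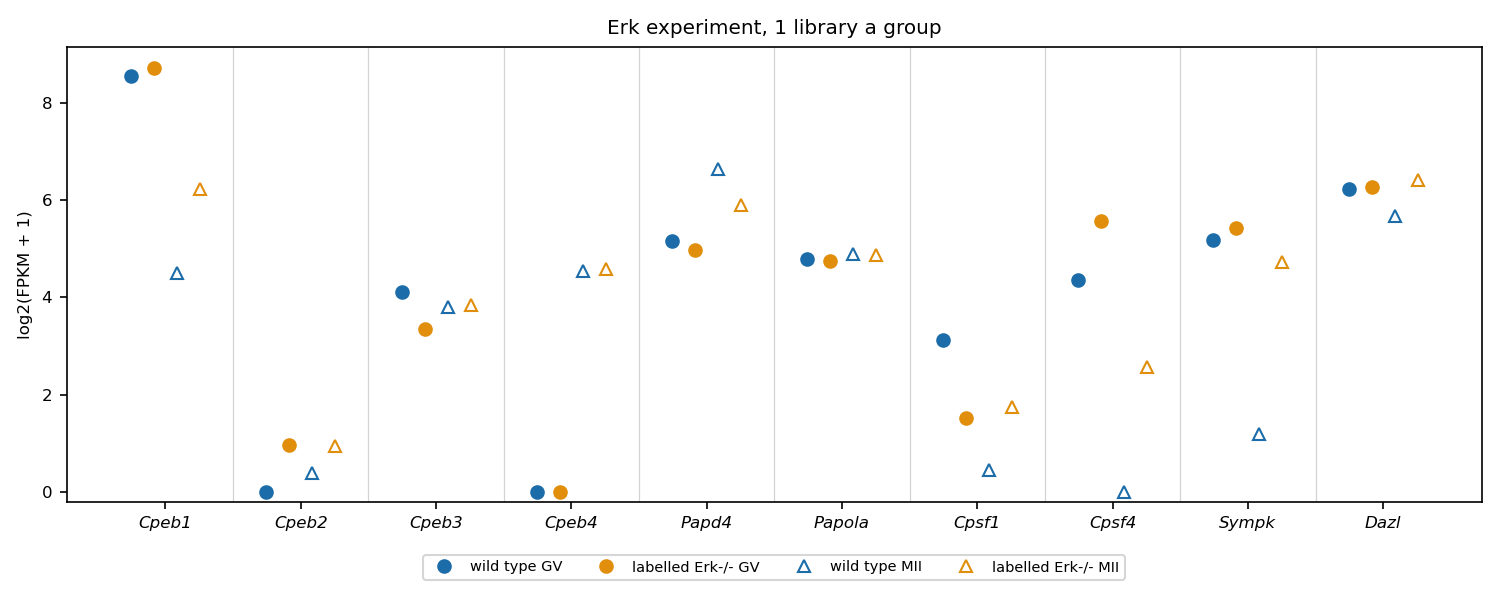
Level of each gene as log2(FPKM + 1) in the 4 libraries of the Erk experiment, 1 per group; circles are GV, open triangles are MII, blue is wild type and orange is labelled Erk-/-. Cpeb4 is listed at 0 in both GV libraries and stands at 22.4 and 23.1 FPKM at MII, and wild-type Sympk goes from 35.0 to 1.29 FPKM.

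Maturation itself could be compared between the experiments. In wild type of the Erk experiment, 2 of the 9 genes were over 2-fold higher at MII than at GV (20.4% of all genes) and 4 lower (46.9%), with 67.3% in either direction. Over all genes the median was -0.76, or -0.12 under median-of-ratios scaling. With Erk-/- on the label, 1 was higher (23.9%) and 2 were lower (33.4%), with 57.3% in either direction. Cpeb1 went from 376 to 21.6 FPKM in wild type and from 418 to 73.6 FPKM in the libraries labelled Erk-/-, whereas in wild type of the Btg4 experiment it was level (0.03, above). Cpeb4, listed at 0 at GV in both, reached 22.4 and 23.1 FPKM at MII. Papd4 went from 34.8 to 98.0 FPKM in wild type and from 30.5 to 58.4 FPKM in the libraries labelled Erk-/-, and in the Btg4 experiment it was lower at MII in all wild-type libraries. Sympk went from 35.0 to 1.29 FPKM in wild type and from 42.2 to 25.7 FPKM in the libraries labelled Erk-/-. Cpsf4 went from 19.4 FPKM to a listed 0 in wild type and from 46.3 to 4.91 FPKM in the libraries labelled Erk-/-, and was lower at MII in wild type of both experiments. Dazl was 73.8 and then 50.3 FPKM in wild type, and 75.9 and then 84.7 FPKM in the libraries labelled Erk-/-.

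**Figure D5:**
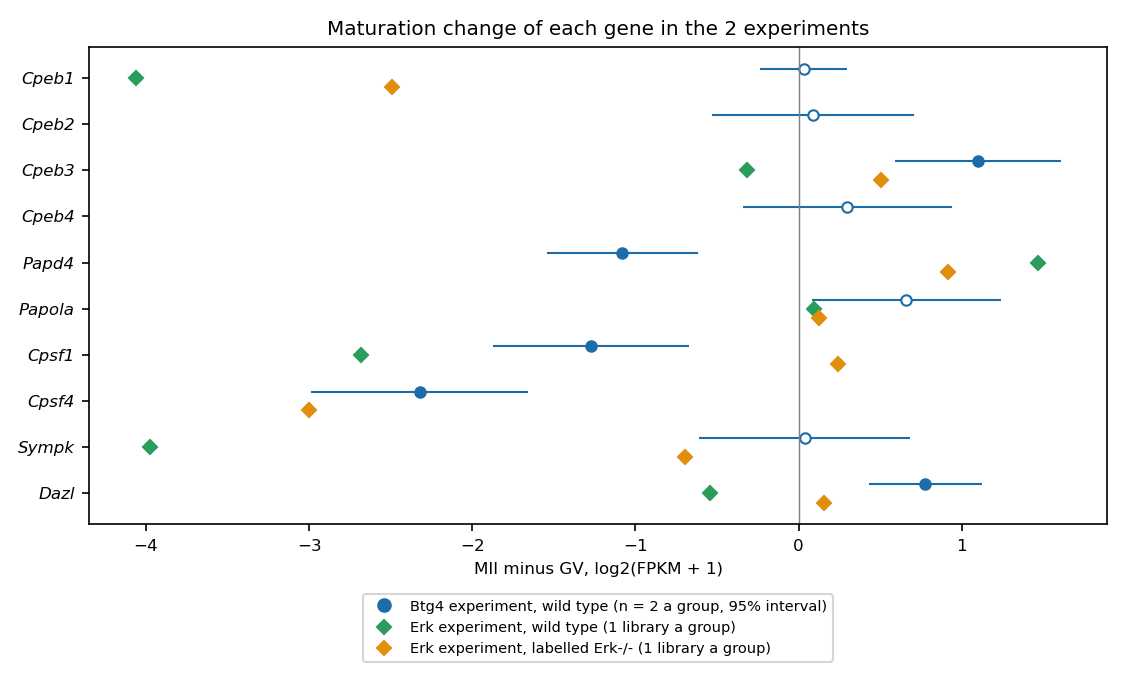
MII minus GV on log2(FPKM + 1) for each gene in wild type of the Btg4 experiment (blue, limma estimate with 95% interval, 2 libraries per group, filled where the adjusted p is under 0.05) and in the Erk experiment (green wild type, orange labelled Erk-/-, 1 library per group). Points with a value listed at 0 are left out (Cpeb4 in both Erk series, Cpsf4 in Erk wild type), as is Cpeb2, under 1 FPKM in every Erk library; Papd4 stands at -1.08 in the Btg4 experiment and at 1.47 in Erk wild type.

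The 19 recruited mRNAs were followed through maturation in both experiments; the difference between the experiments was not tested. The counts rest on unlike criteria, limma calls in the Btg4 experiment and a 2-fold cut without a test in the Erk experiment. In wild type of the Btg4 experiment 7 were called higher and 10 lower at MII than at GV, beside 25.2% and 28.5% of all genes. Of these calls, Ccnb2 (log2 change 0.83), Dcp2 (0.93), Bub1b (0.63) and Dcp1a (-0.85) changed by less than 2-fold. In wild type of the Erk experiment 15 were over 2-fold higher and 1 lower, beside 20.4% and 46.9%. In the libraries labelled Erk-/- 13 were higher and 1 lower, beside 23.9% and 33.4%. Plat, the classic mRNA of this class, which encodes tissue plasminogen activator, went from 843 and 848 FPKM to 27.5 and 27.7 FPKM in wild type of the Btg4 experiment, and from 400 to 3374 FPKM in wild type of the Erk experiment. Btg4 mRNA went from 1450 and 1673 FPKM to 415 and 406 FPKM in the former and from 216 to 2987 FPKM in the latter. Bub1b was higher at MII in both, going from 211 and 214 FPKM to 309 and 352 FPKM and from 301 to 1305 FPKM. The labels give the same preparation for both experiments, and what differs between them was not tested.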

How the data were processed

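Expression was measured by RNA-seq of purified mRNA in 20 libraries. Per the submitters' processing notes, reads were processed with CASAVA 1.8, TopHat and Cufflinks on mm9; for TopHat, Cufflinks and the annotation, the release is not given in the sources used here. The authors deposited gene-level FPKM with intervals for 23813 loci per library. Loci sharing a symbol were summed (260 symbols). FPKM values are relative, and the intervals cover counting error only. Groups came from the labels.

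log2(FPKM + 1) was fitted with limma 3.58.1 in R 4.3.3 on all 16 libraries of the Btg4 experiment (8 groups, 8 residual degrees of freedom, variance trend), over 12311 genes with a mean of at least 1 FPKM in at least 1 group. P-values are two-sided and Benjamini-Hochberg adjusted, with a threshold of 0.05. This scale understates changes of low genes. The fit was tested on simulated data. Erk libraries (1 per group) were compared past 2-fold without a test.

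All 10 genes are named, as are the pathway genes with the largest called changes (up to 4 each way per comparison; some are not reported here). Members and lists were chosen with earlier results of these data known. Alternatives were a pseudocount of 0.1, no filter, a filter at 5 FPKM, median-of-ratios scaling, quantile normalization, a replicate block, the compared groups alone and leaving out each library. Coordinates of the 10 genes are mm9 as deposited, 1-based.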

Additional observations from a re-analysis of the deposited data

Results flagged for a closer look

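The change between stages differed between genotypes (limma interaction term, labelled Btg4-/- minus wild type, adjusted p under 0.05) in 14 gene and step combinations. From GV to MII the term was 0.96 for Cpeb1, -1.73 for Cpeb3, -1.11 for Papd4, 2.20 for Cpsf4, 1.12 for Sympk and -1.10 for Dazl. From MII to the zygote it was -0.91 for Cpeb1 and 1.24 for Cpeb3. From zygote to the 2-cell embryo it was -1.58 for Cpeb2, 1.73 for Papd4, -1.38 for Papola, -1.41 for Cpsf4, -1.11 for Sympk and 3.16 for Dazl; the Cpeb2 term follows from a gene that passed the filter only through the wild-type 2-cell group. The Cpeb1 term of the first step ended under quantile normalization (0.43, adjusted p = 0.124). The Sympk terms ended under both scalings and, in each step, without 6 of the 8 libraries taken singly (adjusted p 0.0732 to 0.183 for the first step and 0.0545 to 0.148 for the last). The Cpeb3 term of the second step ended without 6 of the 8 libraries (adjusted p 0.0579 to 0.119), and the Cpsf4 term of the last step without wild-type zygote library 2 (adjusted p = 0.0799), labelled Btg4-/- 2-cell library 2 (adjusted p = 0.0676) or wild-type 2-cell library 1 (adjusted p = 0.0895).

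In 3 genes the wild-type change from GV to MII of the Erk experiment had the opposite direction to that of the Btg4 experiment. For these genes every wild-type MII library of the Btg4 experiment lay on the same side of every wild-type GV library. The changes in the Erk experiment were -0.32 for Cpeb3, 1.47 for Papd4 and -0.54 for Dazl. These differences were not tested, since the Erk experiment has 1 library per group. Under median-of-ratios scaling Cpeb3 (0.46) and Dazl (0.27) took the other sign, and under quantile normalization Cpeb3 did (0.84) and Dazl did not (-0.20); Papd4 was 2.28 and 1.93.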

How the results depend on the processing

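No member's called change took the other sign under any alternative run. The count of members called moved by over 1.5 times as follows. At GV between genotypes it was 1 and became 0 under median-of-ratios scaling, quantile normalization and the compared groups alone (limma, where 2631, 2265 and 2956 of all genes had an unadjusted p under 0.05), and 0 to 0 without each library in turn. In the zygote it was 8 and became 5 with a pseudocount of 0.1, and 4 to 6 without each library. For MII to zygote in wild type it was 3 and became 1 with a pseudocount of 0.1, 1 under median-of-ratios scaling, 0 under quantile normalization, 0 with the groups alone, and 0 to 0 without each library. For zygote to 2-cell in wild type it was 7 and became 4 with the groups alone. In the libraries labelled Btg4-/- it went from 4 to 2 for GV to MII with the groups alone (2 to 3 without each library), and for MII to zygote from 4 to 2 under quantile normalization and 1 with the groups alone (2 to 3 without each library); for zygote to 2-cell it was 5, and 3 to 5 without each library. The interaction of the MII to zygote step went from 2 to 1 with the groups alone (1 to 2 without each library). In the libraries labelled Erk-/-, the count past 2-fold from GV to MII went from 3 to 5 under quantile normalization. The cause of these shifts was not tested. Without each library a group keeps 1 library, assumed to vary like the others.

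Same-numbered libraries were not paired by the labels, and their deviations correlated at -0.01 to 0.13 over 28 pairs of groups (2 over 0.1). With the replicate block, 126 of 130 member results kept their side of the threshold; Cpsf1 in the zygote lost its call (adjusted p = 0.055), and Papola for GV to MII in wild type (adjusted p = 0.0346), Dazl for MII to zygote in the libraries labelled Btg4-/- (adjusted p = 0.0363) and the Papola interaction for GV to MII (adjusted p = 0.0474) gained one. Scaling also moved the share of all calls that were higher for MII to zygote in wild type, from 71.9% to 50.8%, and in the libraries labelled Btg4-/- from 65.8% to 39.5%. Cpsf1 and Cpeb2 rest on few fragments, so small differences in them were not detectable. In the labelled Btg4-/- MII libraries the intervals imply few fragments also for Papd4 (27.2 and 13.1) and Cpeb4 (12.9 and 21.9). The same holds for Papd4 in the labelled Btg4-/- zygotes (24.9 and 14.7).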
